A study of Mus musculus with 4 samples.

Results

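The genes described here are regulators that hold cells back from division or respond to stress. They comprise 4 cyclin-dependent kinase (CDK) inhibitors, the GADD45 family, and Trp53 with its partners Mdm2 and Ccng1. They were taken by gene symbol, 10 in all, out of 19504 genes measured. Of the 10, 9 had a row on the array, each a single row, and Trp53 was not analysed here.

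CDK inhibitors stop cyclin-dependent kinases from driving a cell through the cycle. Cdkn1a (p21) and Cdkn1b (p27) belong to the Cip/Kip family, which acts on several cyclin-CDK complexes, and Cdkn2c and Cdkn2d belong to the INK4 family, which binds the CDKs of early G1. The GADD45 proteins are small stress-induced proteins that bind the kinase MEKK4 (gene Map3k4) and the replication clamp PCNA. The tumour suppressor p53 turns on Cdkn1a, Gadd45a, Mdm2 and Ccng1 after DNA damage. Mdm2 is the ubiquitin ligase that marks p53 for degradation, and Ccng1 (cyclin G1) acts with it. In lymphocytes several of these genes also answer to activating stimuli, Gadd45b and Cdkn1a among them.

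The samples were mouse group 3 innate lymphoid cells (ILC3s), sorted as lineage-negative, CD90 high and CD45 low. The 4 genotypes were circZbtb20-/- (lacking a circular RNA of the Zbtb20 gene) with its circZbtb20+/+ wild type, and Nr4a1-/- (lacking an orphan nuclear receptor) with its Nr4a1+/+ wild type. Each genotype was measured on 1 array. The knockouts and wild types are named in the labels only by genotype. The sources used here do not state age, tissue, the number of mice or how either gene was deleted. The 4 arrays were comparable in scale, with medians between 4.34 and 4.51 on the log2 scale, and none of the 9 genes stood at the highest value of the table, 19.93. With 1 array per genotype no value has a replicate error, and precision is limited by having so few arrays.

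Each knockout was set against both wild types, so both comparisons share the wild-type arrays. A gene was called higher or lower when it differed by at least 1 on the log2 scale from both wild types in the same direction, and the higher value of each pair reached the median of its array. This is a rule of size and not a test. The condition on the median is called the filter below. Shares of all genes are given over the genes past the filter. Counts of a list are given over its measured genes, some of them under the filter, unless stated. The wild types give the background. Between them 15.2% of 10700 genes differed by at least 1, the median absolute difference was 0.45 and the 90th percentile was 1.19.

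The targeted gene and the cell type were read first. Nr4a1 was lowest in the Nr4a1 knockout, at 11.63, against 18.11 in the Nr4a1 wild type. The value of 11.63 was still far above the median of that array, 4.34. The circZbtb20 knockout had a value of 15.98, against the highest value of the table in the circZbtb20 wild type. The sources used here do not say whether the row covers the deleted stretch of Nr4a1. In the Nr4a1 knockout the related genes Nr4a2 and Nr4a3 were lower too, by -7.81 and -7.36 from the paired wild type. The difference of Nr4a1 was -6.48, so the fall was not particular to the targeted gene, and its value does not check the label on its own. The library labelled as the Nr4a1 knockout did not carry the marker profile of ILC3s seen in the wild types. All 20 measured T cell and thymocyte markers were higher there than in both wild types. Their median log2 difference was 8.6 from the paired and 9.24 from the other wild type. Their log2 values summed to 306.0, against 131.4 in the Nr4a1 and 120.4 in the circZbtb20 wild type, and a ratio of such sums is not a fold change. Of 24 ILC3 markers 21 reached the array median in the Nr4a1 knockout, against 24 in each wild type. Il22 stood at the highest value of the table in that knockout and in both wild types. Of the 24 markers 17 were lower and 4 higher, with a sum of 197.0 against 296.5 in the Nr4a1 and 293.3 in the circZbtb20 wild type. Those sums were 123.6 for T cells and 323.4 for ILC3s in the circZbtb20 knockout. Of other markers in the Nr4a1 knockout, 11 of 14 for NK cells and ILC1s, 4 of 11 for B cells, 6 of 15 for myeloid cells, 8 of 17 for intestinal epithelium, 13 of 13 for pancreatic acinar cells and 10 of 11 for stroma were lower, and none was higher. The circZbtb20 knockout had 8, 1, 4, 4, 12 and 2 of the same lists lower, and 2, 1, 1, 1, 0 and 0 higher. These marker counts stand beside the shares of every gene past the filter. For the Nr4a1 array the rule gave 15.7% as lower and 28.4% as higher. For the circZbtb20 knockout array the shares were 14.4% and 22.3%, so a list with few called markers there is not read as a shift. Every value of the Nr4a1 knockout below was measured beside these shifts of T cell, ILC3 and other markers, and their part in the results was not tested. In bulk samples of this kind, fewer cells of a type and less RNA per cell cannot be told apart.

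In the library labelled as the Nr4a1 knockout, Cdkn1a and Gadd45b were far lower than in both wild types, while the INK4 inhibitors Cdkn2c and Cdkn2d were higher. The rule called 3 of the 9 genes lower (Cdkn1a, Gadd45b and Gadd45g) and 4 higher (Cdkn1b, Cdkn2c, Cdkn2d and Mdm2). Over all genes it called 15.7% lower and 28.4% higher, of 10730 past the filter. Gadd45a and Ccng1 were not called. The median difference of the 9 genes from the paired wild type was 0.81, against 0.00 over all genes, and the 9 ran from -11.74 to 3.80. Of the 9, Cdkn2c passed the filter only through its higher value in the Nr4a1 knockout.

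Fewer of the 9 genes met the rule in the circZbtb20 knockout. It called 2 of the 9 lower (Ccng1 and Cdkn1b) and 0 higher, where over all genes it called 14.4% lower and 22.3% higher, of 10685 past the filter. Cdkn2c lay under the filter in this comparison. The median difference of the 9 genes was 0.00 from the paired wild type and -0.28 from the other.

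**Figure D1:**
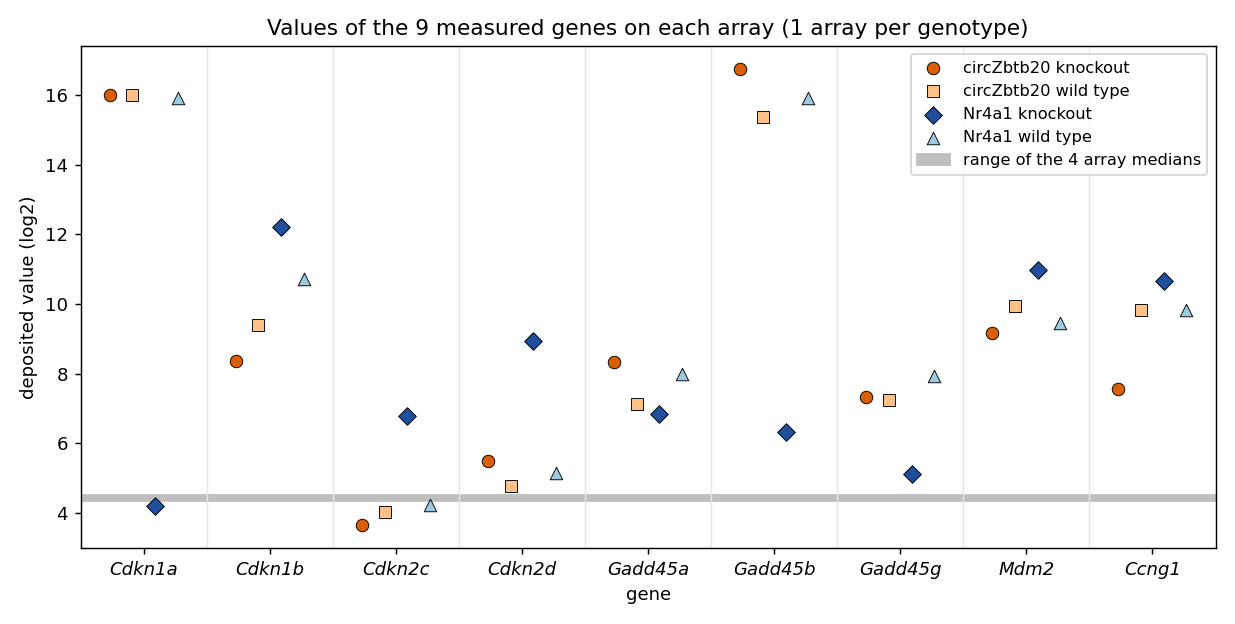
Deposited log2 values (vertical axis) of the 9 measured genes (horizontal axis) on each of the 4 arrays, 1 point per array, with the grey band spanning the array medians of 4.34 to 4.51. Cdkn1a and Gadd45b lie at 15.37 or above on 3 arrays and at 4.19 and 6.32 in the Nr4a1 knockout.

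The sequences just before the transcription starts are shown for the 3 genes called lower in the Nr4a1 knockout and for its 3 CDK inhibitors called higher, since these groups differed in direction there. Each line gives the 100 bases before a start, 5′ to 3′ on the strand of the gene, from RefSeq on GRCm38.p6. Capitals mark the motif TATAAA. Cdkn2c also has a downstream start, whose sequence is left out here.
Cdkn1a, upstream start, chr17:29090879-29090978, plus strand: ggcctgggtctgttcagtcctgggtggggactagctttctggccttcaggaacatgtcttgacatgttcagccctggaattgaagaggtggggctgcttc
Cdkn1a, downstream start, chr17:29093669-29093768, plus strand: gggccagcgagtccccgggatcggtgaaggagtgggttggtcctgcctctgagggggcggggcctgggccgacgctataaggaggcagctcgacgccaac
Gadd45b, chr10:80929991-80930090, plus strand: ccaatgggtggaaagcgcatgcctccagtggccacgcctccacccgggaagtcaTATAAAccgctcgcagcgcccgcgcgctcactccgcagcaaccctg
Gadd45g, chr13:51846575-51846674, plus strand: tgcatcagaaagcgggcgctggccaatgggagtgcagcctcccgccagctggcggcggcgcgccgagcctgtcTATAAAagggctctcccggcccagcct
Cdkn1b, chr6:134920301-134920400, plus strand: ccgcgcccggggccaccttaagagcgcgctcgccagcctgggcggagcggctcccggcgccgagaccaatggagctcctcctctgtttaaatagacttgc
Cdkn2c, upstream start, chr4:109666757-109666856, minus strand: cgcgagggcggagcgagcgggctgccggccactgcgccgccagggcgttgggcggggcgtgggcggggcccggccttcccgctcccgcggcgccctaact
Cdkn2d, chr9:21291210-21291309, minus strand: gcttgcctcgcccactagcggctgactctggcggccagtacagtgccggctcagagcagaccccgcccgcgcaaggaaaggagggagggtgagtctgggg

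Both Gadd45b and Gadd45g have TATAAA on the strand of the gene, beginning 46 and 27 bases before their starts. Taking 250 bases before each start, the 9 measured genes have 11 windows, and 2 of these held TATAAA on either strand, against 12.4% of 32851 windows of all genes. Other motifs were searched on both strands. These were AAAGGTCA, the NBRE bound by NR4A receptors, TGACGTCA, the cyclic AMP response element, TGANTCA, the AP-1 site, and TTTCGCGC, an E2F site. None of the 11 windows held any of them, where 1.34%, 1.55%, 6.75% and 0.256% of all windows did, in that order. None of these 5 motifs overlaps another in its letters here, and a window without a match says nothing of the factor. The GC content of the 11 windows ran from 42.8% to 77.2%, with a median of 52.4% over all windows.

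Cdkn1a (transcript cluster TC1700000496.mm.2), the inhibitor through which p53 arrests the cycle, was at 4.19 in the Nr4a1 knockout and 16.00 in the circZbtb20 knockout, against 15.93 in the Nr4a1 and 16.00 in the circZbtb20 wild type. On 3 arrays it therefore sat within 0.07 of 16.00, among the top few percent of the array, and on the other it lay below the median of 4.34. The differences in the Nr4a1 knockout were -11.74 from the paired and -11.81 from the other wild type. A value below the array median depends on background, so the size of this gap is poorly measured. In all 15 of 10730 genes, 0.14%, differed from both wild types by at least as much, in either direction. The difference between the wild types was -0.07.

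Cdkn1b (TC0600001595.mm.2), the inhibitor linked to quiescence of resting lymphocytes, was at 12.22 in the Nr4a1 knockout and 8.37 in the circZbtb20 knockout, against 10.71 in the Nr4a1 and 9.41 in the circZbtb20 wild type. The 4 arrays thus ran in order from the circZbtb20 knockout to the Nr4a1 knockout, with the wild types between them. The wild types themselves differed by 1.30, which exceeds the 90th percentile of their differences over all genes. In the Nr4a1 knockout Cdkn1b was higher by 1.51 and 2.81. It was lower in the circZbtb20 knockout, by -1.04 from the paired and -2.34 from the other wild type, and the first of these is smaller than the gap between the wild types.

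The INK4 genes had low values on the 3 other arrays and higher ones in the Nr4a1 knockout. Cdkn2d (TC0900001867.mm.2) was at 8.95 in the Nr4a1 knockout and 5.50 in the circZbtb20 knockout, against 5.15 in the Nr4a1 and 4.78 in the circZbtb20 wild type. Cdkn2d was higher by 3.80 and 4.17 in the Nr4a1 knockout, a size that 6.28% of genes reached or passed. Cdkn2c (TC0400003271.mm.2) was at 6.78 in the Nr4a1 knockout and 3.64 in the circZbtb20 knockout, against 4.24 in the Nr4a1 and 4.03 in the circZbtb20 wild type. It lay under the array median on all arrays but that of the Nr4a1 knockout, where the differences were 2.54 and 2.75. With the filter at the 75th percentile, which is 6.94 in the Nr4a1 knockout, this call of Cdkn2c was lost. Neither INK4 gene was called in the circZbtb20 knockout, where Cdkn2d differed by 0.72 and 0.35.

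Other CDK inhibitors were scarcely measured. Cdkn1c, Cdkn2a and Cdkn2b lay between 2.73 and 4.40 on all arrays, and none of them was called in either knockout. Cdkn3, a phosphatase that acts on CDKs and is made in dividing cells, was at 5.74 in the Nr4a1 knockout, against 3.51 in the Nr4a1 and 3.60 in the circZbtb20 wild type.

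The GADD45 genes all lay below both wild types in the Nr4a1 knockout, by very different amounts, and none was called in the circZbtb20 knockout. Gadd45b (TC1000000877.mm.2) was at 6.32 in the Nr4a1 knockout and 16.76 in the circZbtb20 knockout, against 15.92 in the Nr4a1 and 15.37 in the circZbtb20 wild type. In the Nr4a1 knockout it was lower by -9.60 and -9.05, a size that 64 of 10730 genes reached or passed. Gadd45b had its highest value in the circZbtb20 knockout, 1.39 above the paired and 0.84 above the other wild type, so the rule did not call it. The wild types differed by 0.55.

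Gadd45g (TC1300000607.mm.2), which like Gadd45b is known to promote interferon gamma production by T cells, was at 5.12 in the Nr4a1 knockout and 7.32 in the circZbtb20 knockout, against 7.93 in the Nr4a1 and 7.25 in the circZbtb20 wild type. The Nr4a1 knockout was lower by -2.81 and -2.13, while the circZbtb20 knockout lay inside the range of the wild types. Gadd45a (TC0600002422.mm.2), the member most closely tied to p53, spanned only 1.49 over the 4 arrays, the narrowest range of the 9 genes. It was at 6.84 in the Nr4a1 knockout and 8.33 in the circZbtb20 knockout, against 8.0 in the Nr4a1 and 7.13 in the circZbtb20 wild type. Its differences of -1.16 and -0.29 in the Nr4a1 knockout and of 1.20 and 0.33 in the circZbtb20 knockout compare with 0.87 between the wild types.

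Mdm2 and Ccng1 did not follow Cdkn1a. Mdm2 (TC1000002940.mm.2) was at 10.97 in the Nr4a1 knockout and 9.17 in the circZbtb20 knockout, against 9.45 in the Nr4a1 and 9.94 in the circZbtb20 wild type. The rule called Mdm2 higher in the Nr4a1 knockout, at 1.52 and 1.03, but after quantile normalization of the deposited values the second difference was 0.63, and it no longer passed the rule. For the circZbtb20 knockout the differences of Mdm2 were -0.77 and -0.28. Ccng1 (TC1100002550.mm.2) was at 7.57 in the circZbtb20 knockout and 10.65 in the Nr4a1 knockout, against 9.84 in both wild types. The circZbtb20 knockout differed by -2.27 from each. Of 10685 genes 10.7% differed from both wild types by at least that much. The Nr4a1 knockout differed by 0.81 from each wild type and was not called. The low value of Ccng1 in the circZbtb20 knockout was measured beside low pancreatic acinar markers. Of 13 such markers 12 were lower, beside 14.4% of all genes past the filter. Their median difference was -4.86 from the paired and -2.47 from the other wild type. Their log2 values summed to 63.4 in that knockout, against 139.7 in the paired and 107.9 in the other wild type. The sums also differ between the wild types, and the part of these markers in the difference of Ccng1 was not tested.

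**Figure D2:**
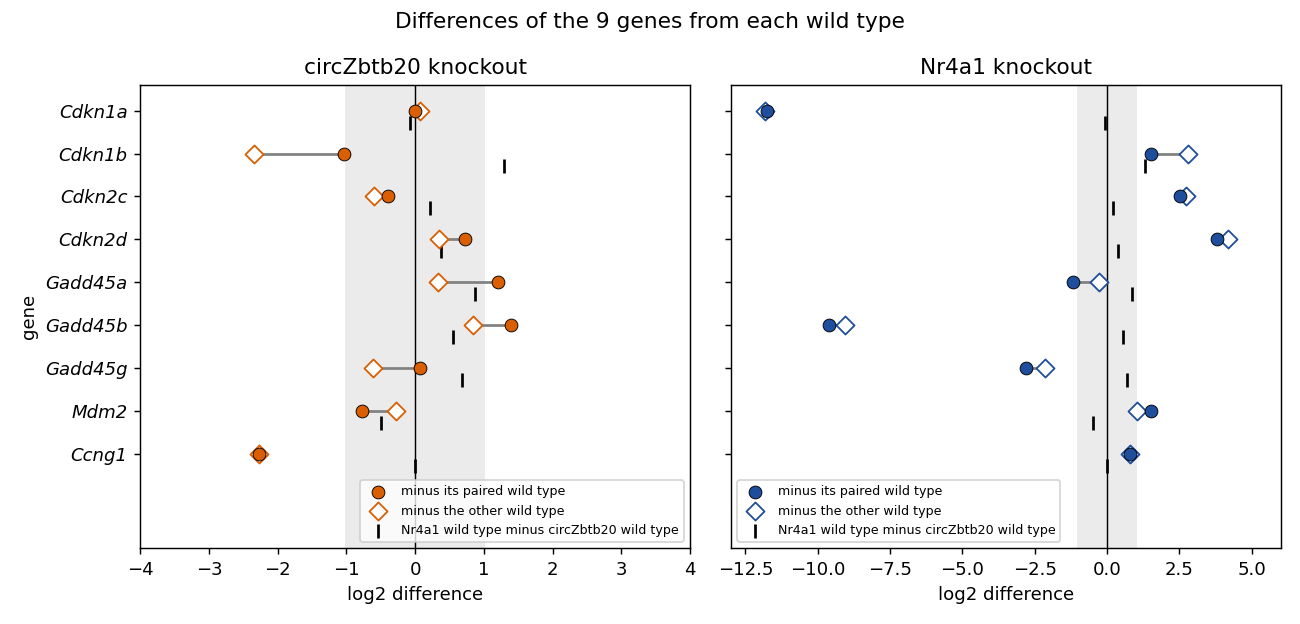
Log2 differences (horizontal axis) of the 9 genes in the circZbtb20 knockout (left) and the Nr4a1 knockout (right, wider axis) from the paired wild type (filled circles) and the other wild type (open diamonds), with the difference between the wild types as black ticks and differences under 1 shaded grey. Cdkn1a and Gadd45b stand apart in the Nr4a1 knockout at -9.05 or below, and Ccng1 has the same difference of -2.27 from both wild types in the circZbtb20 knockout.

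A limma fit that treated both wild types as 1 group of 2 and took its error from their difference was run as a second reading. A gene entered the fit when it reached the median of at least 1 array. Cdkn2c did so only in the Nr4a1 knockout, where it was high, so its p-value below is no support for its call. The fit assumes that each knockout array would vary as the wild types do. At an adjusted p under 0.05 it called 23.8% of 12232 genes in the Nr4a1 knockout and 13.6% in the circZbtb20 knockout. In the Nr4a1 knockout 5 of the 9 genes passed. Cdkn1a passed (limma adjusted p = 0.00157), but with its value below the array median no size is read from the fit. The fitted difference of Gadd45b was -9.32 ± 0.47 (SE, limma adjusted p = 0.00219). Cdkn2d followed at 3.98 ± 0.44 (SE, limma adjusted p = 0.00756), then Cdkn2c at an adjusted p of 0.0168 and Gadd45g at 0.0277 by limma. Cdkn1b (limma adjusted p = 0.077) and Mdm2 (limma adjusted p = 0.111) did not pass. For the circZbtb20 knockout Ccng1 alone of the 9 passed, at -2.27 ± 0.42 (SE, limma adjusted p = 0.0371). Without the filter on low values that fit called 0 of 19504 genes in the circZbtb20 knockout, with 4681 at an unadjusted p under 0.05, and the limma adjusted p of Ccng1 was 0.0594. In the Nr4a1 knockout 4 of the 9 genes passed without the filter, and Gadd45g did not (limma adjusted p = 0.0541).

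Genes that drive the cell cycle were mostly higher in the Nr4a1 knockout. Of 34 measured genes of the S, G2 and M phases 30 were higher and 1, the centromere histone gene Cenpa, was lower, beside 28.4% and 15.7% of all genes. Their median difference was 3.38 from the paired and 3.72 from the other wild type, with 0.19 between the wild types. Of these genes 33 reached the array median in the Nr4a1 knockout, against 21 in the Nr4a1 wild type, so that many passed the filter only through the array where they were high. Ube2c, a ubiquitin-conjugating enzyme of mitosis, was at 12.48 there, against 4.56 in the Nr4a1 wild type, and so higher by 7.92. Ccnb2, a mitotic cyclin, was higher by 7.87, the mitotic kinase gene Plk1 by 7.74 and the spindle checkpoint gene Bub1b, at 3.0 in the Nr4a1 wild type, by 7.38. Sizes that rest on a value near or below the array median, as in these genes, are poorly measured. In the circZbtb20 knockout only 20 of the 34 passed the filter. Of these 2 were higher and 4 lower, beside 22.3% and 14.4% of all genes past the filter. The median of the 34 in that knockout was -0.08. Cenpa was higher by 4.30 and Cdk1 by 2.86, while Pcna was lower by -2.79 and Rrm2, a subunit of ribonucleotide reductase, by -2.47. Cdk1 in the paired wild type, at 2.76, and Rrm2 in the knockout, at 3.58, lay under the array median, so these sizes too are poorly measured.

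Of 22 measured G1 regulators 15 were higher in the Nr4a1 knockout and 0 lower, beside 28.4% and 15.7% of all genes. The median was 2.05 from the paired and 2.16 from the other wild type. Here 21 genes reached the array median in the Nr4a1 knockout, against 17 in the Nr4a1 wild type, so that Cdc25a, E2f2, Skp2 and Cks1b passed the filter only through the array where they were high. Ccnd3, a cyclin that partners the kinases held by INK4 inhibitors, was at 16.45 there, against 9.27 in the Nr4a1 wild type, and so higher by 7.18. E2f2, a transcription factor of the G1 to S transition, was higher by 7.99 over a wild-type value of 4.10 that lies under the array median, its partner Tfdp1 by 4.68 and Cdk2 by 4.91. For the circZbtb20 knockout 17 of the 22 passed the filter, and 4 were higher and 1 lower, beside 22.3% and 14.4% of all genes past it. The median of the 22 in that knockout was 0.10. Tfdp2 was higher there by 2.39, Ccne2 by 2.32, Cul1 by 1.84 and Ccnd3 by 1.73. The higher INK4 genes of the Nr4a1 knockout were thus measured on an array where cyclins and T cell genes were higher as well, and the part of either in the other was not tested.

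Genes known as p53 targets were called in both directions. Of 28 measured targets outside the 9 genes, 20 passed the filter in the Nr4a1 knockout. Of these 7 were higher and 6 lower, beside 28.4% and 15.7% of all genes past the filter. The median of the 28 in that knockout was -0.03 from the paired wild type. Trp53i11 was at 17.25 there, against 11.68 in the Nr4a1 wild type, and so higher by 5.57, and the death receptor gene Fas was higher by 3.18. Plk2, a stress-responsive kinase gene, was lower by -5.57, at 3.90 and so below the array median, and Apaf1, the core of the apoptosome, by -3.87. The circZbtb20 knockout had a median of -0.18 over these targets. There 22 passed the filter, and 5 were higher and 3 lower, beside 22.3% and 14.4% of all genes past it. Plk2 was higher by 2.65 and Plk3 by 2.38, while Trp53i11 was lower by -2.48 and Apaf1 by -1.66. Of 24 regulators of p53, 9 were higher and 1 lower in the Nr4a1 knockout, beside the same 28.4% and 15.7%, and the median was 0.76. These included Usp7, a deubiquitinase that acts on p53 and Mdm2, at 3.78, Banp at 2.79, Rfwd3 at 2.67 and the ubiquitin ligase gene Cop1 at 2.27. Among the same regulators the circZbtb20 knockout had 8 higher and 3 lower, beside 22.3% and 14.4%, and the median was 0.30. Trp53bp1 was higher by 2.48, Rfwd3 by 2.31 and Sirt1 by 2.29, and Mdm4, the relative of Mdm2, was lower by -2.32.

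Partners of the GADD45 proteins and the stress kinases they feed were mostly not called. Of 15 measured genes 3 were higher and 1 lower in the Nr4a1 knockout, beside 28.4% and 15.7%, and the median was 0.63 from the paired wild type. Mapk11, a p38 kinase gene, was higher by 5.16 over a wild-type value of 4.02 under the array median, Pcna, which also stands among the S phase genes above, by 3.71 and Map2k6, which activates p38, by 3.08, while Map3k5 was lower by -1.60. Map3k4 itself was at 7.02 in the Nr4a1 knockout, close to the 7.09 of the Nr4a1 wild type. In all 5 of the 15 genes were called in the circZbtb20 knockout, 2 higher and 3 lower, beside 22.3% and 14.4%, and the median was 0.09. Map3k4 was at 4.29 there, against 7.16 in the circZbtb20 wild type, and so lower by -2.87, on the array where Gadd45b had its highest value. The 4.29 lies under the array median of 4.38, so that size is poorly measured. Mapk8, a JNK gene, was higher by 3.26 and Mapk14, a p38 gene, by 3.10.

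Immediate-early genes, which respond within minutes to stimulation of a cell, were lower in the Nr4a1 knockout together with Cdkn1a and Gadd45b. Of 37 measured genes 28 were lower and 2 higher, beside 15.7% and 28.4% of all genes, and the median was -5.25 from the paired and -4.10 from the other wild type. Fosb was lower by -11.18, Rgs1 by -10.10, Fosl2 by -8.80 and Jun by -8.72. The list holds Nr4a1 itself and shares Plk2, Plk3 and Btg2 with the p53 targets. Of the 37 genes 12 were lower and 4 higher in the circZbtb20 knockout, beside 14.4% and 22.3%, and the median was -0.15 from the paired but -1.27 from the other wild type. Egr1 was lower there by -5.86 and Zfp36 by -5.56. Nr4a1 and Nr4a3 differed by -3.95 and -3.73, and both stood at the highest value of the table in the paired wild type, so these are bounds. Cdkn1a and Gadd45b were not lower on that array.

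**Figure D3:**
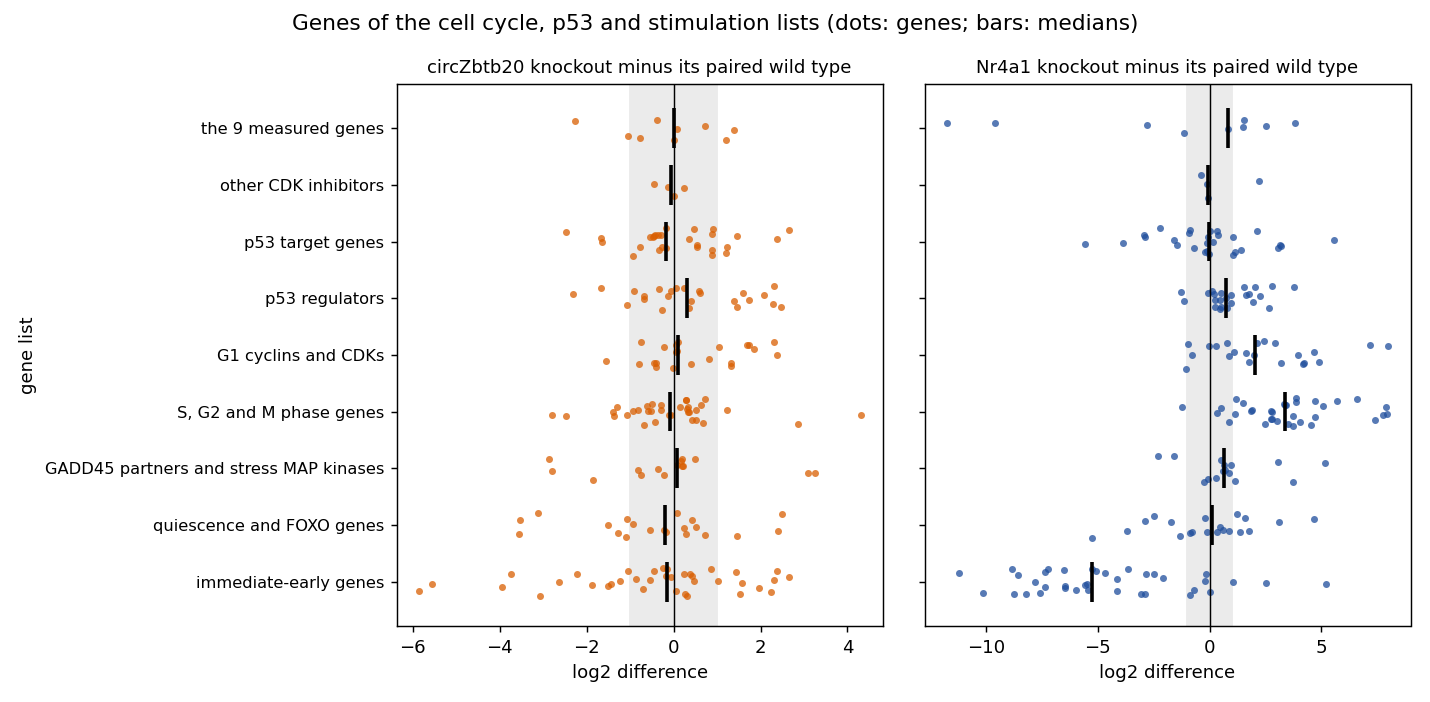
Log2 differences from the paired wild type (horizontal axis) in the circZbtb20 knockout (left) and the Nr4a1 knockout (right) for the 9 genes and 8 lists of related genes, with 1 dot per measured gene, random vertical spread within a row, black bars at the medians and differences under 1 shaded grey. In the Nr4a1 knockout the median is 3.38 for S, G2 and M phase genes and -5.25 for immediate-early genes, while in the circZbtb20 knockout the medians lie between -0.20 and 0.30.

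The 2 genes with the widest range over the 4 arrays were Cdkn1a, at 11.81, and Gadd45b, at 10.44. For each, the genes of most similar pattern were found by the root mean square difference of the 4 values after the mean of each gene was removed. This likeness rests on 4 arrays. Each gene named below was lowest in the Nr4a1 knockout, which follows from the choice by pattern. Among 11531 genes the nearest to Cdkn1a were Klrb1b, an NK cell receptor gene, at 0.25, Serpinb9, a granzyme B inhibitor gene, at 0.36, Pxdc1 at 0.39, Odc1, an enzyme of polyamine synthesis, at 0.40, and Rora, a transcription factor of innate lymphoid cells, at 0.41. Rora, also 1 of the 24 ILC3 markers above, was at 5.59 in the Nr4a1 knockout, against 17.38 in the Nr4a1 wild type. In all 23 genes lay within 1 of Cdkn1a by this measure.

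The nearest to Gadd45b were Abcb1b, a drug efflux pump gene, at 0.27, Tmem176a at 0.28, Tmem176b at 0.41, the angiogenic factor gene Vegfa at 0.43 and Fosl2, an AP-1 subunit, at 0.43. Fosl2 was at 5.44 in the Nr4a1 knockout, against 14.24 in the Nr4a1 wild type. In all 38 genes lay within 1 of Gadd45b. The low values of Pxdc1, at 3.08, and Abcb1b, at 3.37, lay under the array median, so the sizes of those falls are poorly measured.

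**Figure D4:**
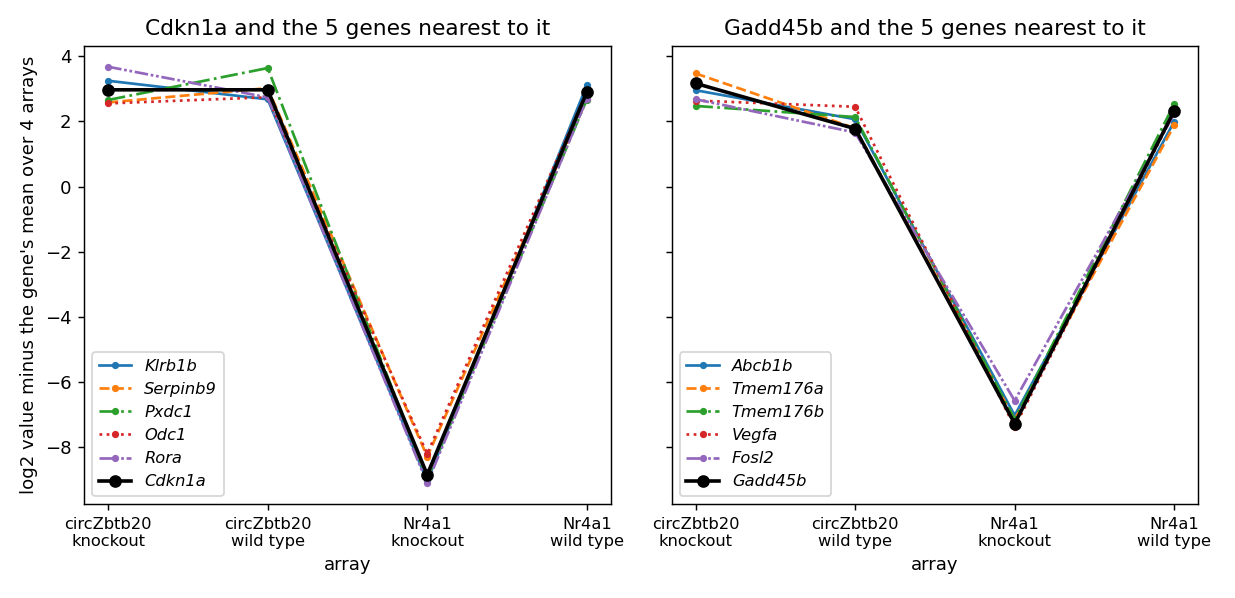
Log2 values after subtraction of the mean of each gene over the 4 arrays (vertical axis) for Cdkn1a (left, black) and Gadd45b (right, black) and the 5 genes nearest to each, by array (horizontal axis), with lines joining the values of a gene and no order implied among arrays. All 12 curves have their low point in the Nr4a1 knockout, which for the nearest genes follows from their choice by pattern on these arrays.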

How the data were processed

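The data are 1 table of log2 expression values for 4 arrays, 1 per genotype, for 22205 rows. The deposited log2 values come from RMA as run in Affymetrix Power Tools, per the submitters' processing notes. RMA subtracts background, normalizes between arrays and combines the probes of a row. The deposited distributions were not identical, with medians between 4.34 and 4.51. The sources used here give no version, setting or genome build. Normalization between arrays can hide a change of total RNA per cell. Several rows share the highest value, 19.93, and differences from it are bounds. No detection calls were used.

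Rows were named through the platform's gene table, which gave 1 symbol for 19571 rows, several for 0 and none for 2634. That table is for another Affymetrix mouse platform than the array the series design text names, and names rest on the match of row identifiers. The brightest row by mean stood for each of 55 genes with more than 1 row, which left 19504 genes. All were found in a RefSeq gene table, used for names. Promoters are from RefSeq on GRCm38.p6.

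Groups follow the titles of the samples. The rule of size used a log2 difference of 1, and a filter at percentile 50 of the array that held the higher value of a pair. It has no p-value. The alternative fit used limma 3.58.1 across all genes past the filter on at least 1 array, with Benjamini-Hochberg adjustment. Its p-values measure only the spread between the wild-type samples, which the labels do not describe as separate animals. The counting and the fit were tested on simulated data. Alternatives were quantile, cyclic loess and median centring, another row per gene, a stricter size, other filters and each wild type alone.

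The members and gene lists were chosen with earlier results of these data known. Named genes are all members, Nr4a1 and, from each list and knockout, up to 4 called genes with the greatest difference from the paired wild type, plus the 5 genes nearest in pattern to the 2 members of widest range. Cdkn1c, Cdkn2a, Cdkn2b, Tob1, Btg2, Cdc25a, Skp2, Cks1b, Klf2, Klf4, Nr4a2, and Nr4a3 and Map3k4 in the Nr4a1 knockout, were named outside this rule, after their values were seen.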

Additional observations from a re-analysis of the deposited data

How the results depend on the processing

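Of 108 differences of the 9 genes recomputed under 3 other normalizations, 104 moved by less than 0.56, the SD within the wild types, 4 moved more and 0 called differences changed sign. Cdkn1a and Gadd45b kept differences between -12.02 and -8.91 in the Nr4a1 knockout. Mdm2 lost its call there after quantile (0.63 from the other wild type) and cyclic loess normalization (0.50). Cdkn1b lost its call in the circZbtb20 knockout after median centring (-0.94 from the paired wild type), which left 1 of the 9 genes lower there. That centring also moved the median difference of all genes in the Nr4a1 knockout to 0.17. With a threshold of 2, the circZbtb20 knockout had 969 genes higher and 548 lower, with 1 of the 9 genes lower. The Nr4a1 knockout then had 1356 higher and 886 lower, with 2 of the 9 genes higher and 3 lower. At thresholds of 1 these counts were 2380, 1543, 3042 and 1684. A filter at the 75th percentile left 1010 genes lower in the circZbtb20 knockout, and the other wild type alone gave 2338. That filter also ended the call of Cdkn2c in the Nr4a1 knockout, which left 3 of the 9 genes higher. The paired wild type alone called 2 of the 9 genes higher in the circZbtb20 knockout, Gadd45a and Gadd45b, and 2 lower. Over all genes that setting called 3035 higher and 2157 lower. The limma fit called 1080 genes higher and 578 lower in the circZbtb20 knockout, with 1 of the 9 genes lower, and 1873 higher and 1039 lower in the Nr4a1 knockout, with 2 of the 9 genes higher. Without its filter, a choice made after seeing the data, it called 0 higher and 0 lower in the circZbtb20 knockout, including 0 of the 9 genes, and 1428 higher and 752 lower in the Nr4a1 knockout, with 2 of the 9 genes higher and 2 lower, against 3 lower with the filter, since Gadd45g no longer passed. That change adds genes to the fit, and the cause was not tested further. None of the 9 genes has a second row. No paired analysis was possible because each genotype has 1 array and the labels carry no replicate numbers. Values near the array medians, such as those of Cdkn2c and the low value of Cdkn1a, are limited by background.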

Other observations

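Of 20 measured genes of quiescence and FOXO signalling, 6 were lower and 3 higher in the circZbtb20 knockout, beside 14.4% and 22.3% of all genes. Their median was -0.20 from the paired and -0.62 from the other wild type. Among antiproliferative genes of the BTG/TOB family, Btg1 and Tob2 were called lower, while Tob1 (-0.55 and -0.41) and Btg2 (-0.18 and -0.61) were not called. Btg1 was at 9.82 in the circZbtb20 knockout, against 12.93 in the paired and 14.33 in the other wild type, and Tob2 was at 6.13, against 9.68 in the paired and 10.50 in the other wild type. The kinase gene Akt1 was lower by -3.53 and its relative Akt2 higher by 2.50.

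In the Nr4a1 knockout 6 of these genes were higher and 4 lower, beside 28.4% and 15.7% of all genes, and the median was 0.12 from the paired wild type. Pik3ip1, an inhibitor of PI3K signalling, was higher by 4.66 and the histone demethylase gene Kdm5b by 3.09, while Klf6 was lower by -5.25 and Tob2 by -3.68. The list shares Klf2, Klf4, Klf6 and Btg2 with the immediate-early genes above, and Klf4 and Klf6 were counted as lower in both lists. These values too were measured beside the higher T cell genes of that array, whose part was not tested.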
